A study of Homo sapiens with 6 samples.

Results

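Hypoxia-responsive genes outside glycolysis were examined in HCT116 cells, a human colorectal carcinoma line, with and without forced expression of EPHX2, which encodes soluble epoxide hydrolase. The members were a list of 37 genes matched by symbol, all 37 of which were found among the 38041 genes of the deposited table. They comprise targets of hypoxia-inducible factor (HIF) together with the HIF subunits and the enzymes that control them. The overEXP group was stably transfected with EPHX2 from a lentivirus vector and selected with puromycin, and had 3 libraries. The NC group was its negative control with 3 libraries, titled as empty-vector cells, although their labels also give them as untreated. Both groups were cultured in the same medium in a humidified incubator, and no label names a low-oxygen treatment for either. Whether the 3 libraries of a group came from separately derived cells is not stated, so p-values rest on library-to-library spread alone, which could be technical in origin.

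HIF is a pair of transcription factor subunits, of which the alpha subunit (HIF1A or EPAS1) is made continuously and destroyed while oxygen is present. Prolyl hydroxylases of the EGLN family mark it with the help of oxygen and iron, VHL then recruits the ubiquitin ligase that removes it, and the asparagine hydroxylase HIF1AN blocks what remains. When oxygen is scarce the alpha subunit persists, pairs with ARNT and binds short hypoxia response elements near its targets, so that its activity is set mainly at the protein level and not by its mRNA. Its targets outside glycolysis include receptors for the removal of mitochondria, collagen-modifying enzymes, histone demethylases, secreted angiogenic factors and regulators of pH.

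The RNA sequencing values are FPKM (fragments per kilobase of exon, scaled to the mapped reads of each library), a scale corrected for transcript length, on which levels of different genes can be set side by side. EPHX2, the transfected gene, had 156.8, 161.8 and 181.2 FPKM in overEXP libraries, against 1.53, 1.96 and 1.50 FPKM in NC libraries. The most common low value of single-exon genes was taken as the worth of 1 read. It implied a depth of about 37.0 to 42.8 M reads in overEXP libraries and 34.6 to 42.9 M reads in NC libraries. That value was sought only within a range set beforehand and was held by 30 to 64 genes in a library, so these depths are rough. Mitochondrially encoded RNA took 34.9% to 39.9% of summed FPKM in overEXP libraries and 29.6% to 34.6% in NC libraries. All 7 epithelial genes listed for HCT116, among them EPCAM and KRT8, were read above 1 FPKM. One library stood apart: in overEXP replicate 2, 129 transcripts reached 1 FPKM while they stayed under 0.1 in every other library, against 0 to 7 in each of the others. Of 16 genes of differentiated colon epithelium, 15 reached 1 FPKM somewhere, and their summed level was 388.5 FPKM in overEXP replicate 2, 16.0 and 17.5 FPKM in the other overEXP libraries and 12.6 to 13.7 FPKM in NC libraries. Summed markers of fibroblasts, endothelium and leukocytes lay between 2.26 and 15.5 FPKM in every library, and the highest sum of each was also that of overEXP replicate 2. The fibroblast sum there was 13.0 FPKM, against 2.37 to 3.82 FPKM in the other libraries. The leukocyte sum was 15.5 FPKM, against 5.48 to 7.64 FPKM, and the endothelial sum 2.87 FPKM, against 2.26 to 2.80 FPKM. In bulk RNA a change in the share of cells and a change in RNA per cell cannot be told apart.

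Among the members, 8 rose and 1 fell in overEXP cells. The genes that rose were BNIP3L and BNIP3, both receptors for mitophagy, P4HA1 and PLOD2, both collagen hydroxylases, ANKRD37, FAM162A, NDRG1 and the histone demethylase KDM3A, by log2 fold changes of 0.37 to 0.86. The gene that fell was ADM, which encodes the vasodilator peptide adrenomedullin, with a log2 fold change of -0.49. Genes with at least 1 FPKM in at least 3 libraries were tested with limma on log2(FPKM + 1), and a change was called at an adjusted p under 0.05 after Benjamini-Hochberg adjustment over all 12281 genes tested. Of the 37 members 31 were tested, and the 8 higher ones made up 25.8% of these and the 1 lower one 3.23%, where 1.25% of all genes tested were higher and 2.98% lower. The median log2 fold change was 0.16 over the members tested and -0.05 over all genes tested. Of the 31 members, 12 had every overEXP library above every NC library and 7 every overEXP library below, where the shares over all genes tested were 9.23% and 21.7%. ANKRD37 and MIR210HG were under 1 FPKM in all NC libraries and entered the test only through the overEXP libraries, so their direction was bound to the filter, and 7 of the other 29 members tested were higher and 1 lower.

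These calls rest on few libraries and on the number of genes tested. With no filter on low values, all 38041 genes were fitted, 0.00789% were higher and 0.00526% lower (3 and 2 genes), and none of the 37 members passed in limma, the smallest adjusted p being 0.0524 for BNIP3L. At an unadjusted p under 0.05, 15 members were higher and 4 lower in that fit (40.5% and 10.8%, against 2.98% and 7.13% of all genes). In the fit with the filter 12 and 4 of the 31 were (38.7% and 12.9%, against 6.55% and 16.4% of all genes tested), so that the share of lower members was below that of all genes. At 3 libraries against 3, an exact two-sided permutation test of a single gene cannot give a p under 0.1, which every member without overlap reached.

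**Figure D1:**
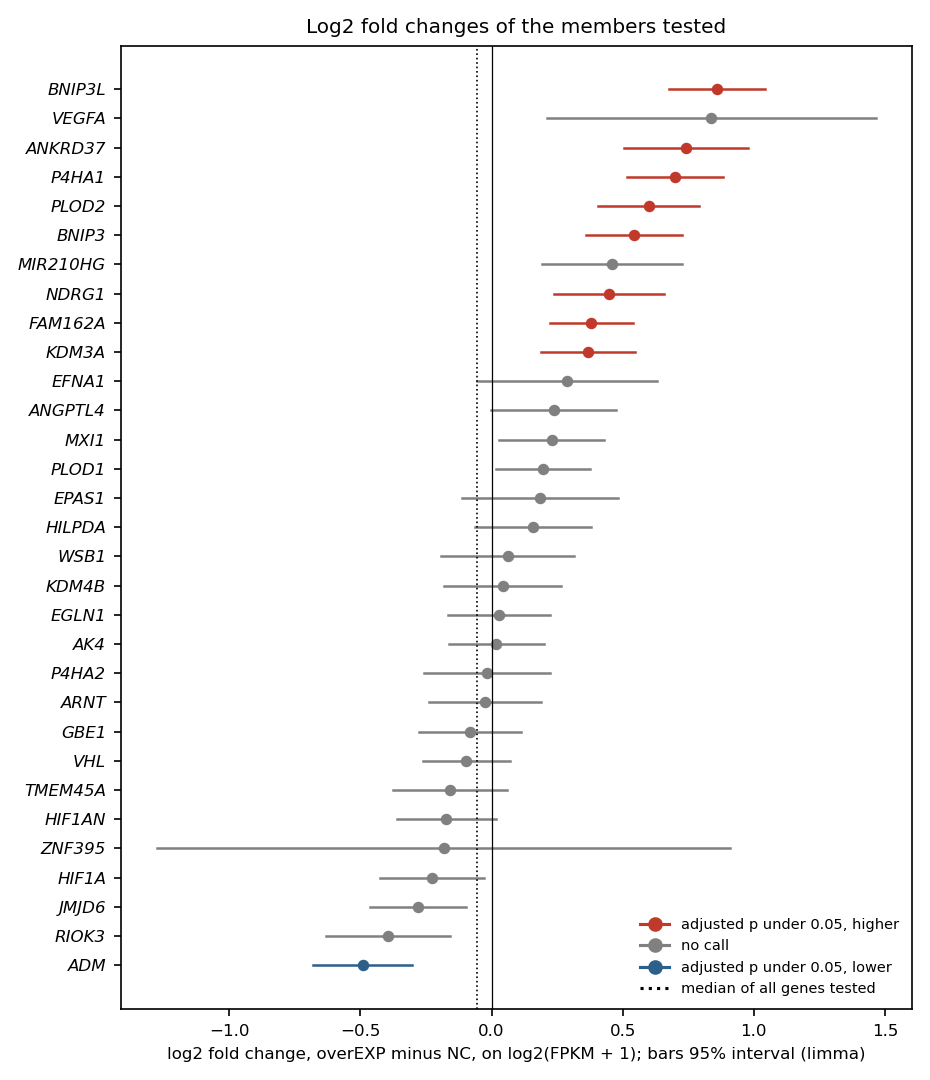
Log2 fold change of each of the 31 members tested, overEXP minus NC on log2(FPKM + 1), as points with the 95% interval from limma as bars. The 8 members in red and ADM in blue had an adjusted p under 0.05, and the dotted line marks the median of all 12281 genes tested, -0.05.

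The core letters of the hypoxia response element are ACGTG, or else the less strict form GCGTG, and they were searched on both strands in the promoter windows of RefSeq (GRCh38.p14), which run from 250 bases before to 50 bases after the start of a gene. Windows were found for 30 of the 37 members, and overlapping matches were counted as 1 site. At least 1 site lay in a window of 24 of these 30 members (80%), against 71.6% of 8821 tested genes with a window and 52.4% of 27305 genes in the promoter table. ACGTG itself lay in a window of 18 members (60%), against 33% of tested genes and 24.9% of the table. Among members that rose, 6 had a window, all 6 held a site and 5 held ACGTG. Of 17 members with a window that were tested and not called, 13 held a site and 9 held ACGTG. Of 6 untested members with a window, 4 held a site and 4 held ACGTG. A link between the letters and the calls was not tested. The windows of BNIP3L, NDRG1, ZNF395, VEGFA, JMJD6, HILPDA and VHL were not matched. The 4 matched members that rose with the largest log2 fold changes were chosen. Their windows are shown with that of ADM, the member that fell. They read 5′ to 3′ along the gene, and capitals mark a match of either form on either strand.
BNIP3 (chr10:131981874-131982173, minus strand): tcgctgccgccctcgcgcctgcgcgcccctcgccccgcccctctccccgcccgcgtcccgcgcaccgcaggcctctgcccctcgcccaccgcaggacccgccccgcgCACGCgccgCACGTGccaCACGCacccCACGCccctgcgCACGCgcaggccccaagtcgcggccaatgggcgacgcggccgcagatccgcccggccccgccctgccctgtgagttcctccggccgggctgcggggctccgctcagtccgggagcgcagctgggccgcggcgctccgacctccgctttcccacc
P4HA1 (chr10:73096817-73097116, minus strand): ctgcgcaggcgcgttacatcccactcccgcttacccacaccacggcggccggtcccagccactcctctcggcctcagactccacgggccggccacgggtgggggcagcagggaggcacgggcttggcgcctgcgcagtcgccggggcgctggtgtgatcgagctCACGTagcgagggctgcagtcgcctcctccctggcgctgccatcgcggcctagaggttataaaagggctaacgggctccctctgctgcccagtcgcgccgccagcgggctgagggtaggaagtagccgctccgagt
PLOD2 (chr3:146161135-146161434, minus strand): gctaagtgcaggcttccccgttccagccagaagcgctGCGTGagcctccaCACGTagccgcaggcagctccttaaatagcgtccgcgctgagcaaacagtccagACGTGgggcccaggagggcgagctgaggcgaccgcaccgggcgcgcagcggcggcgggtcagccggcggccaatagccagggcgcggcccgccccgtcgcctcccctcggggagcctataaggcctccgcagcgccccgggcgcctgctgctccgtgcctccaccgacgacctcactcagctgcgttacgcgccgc
ANKRD37 (chr4:185396591-185396890, plus strand): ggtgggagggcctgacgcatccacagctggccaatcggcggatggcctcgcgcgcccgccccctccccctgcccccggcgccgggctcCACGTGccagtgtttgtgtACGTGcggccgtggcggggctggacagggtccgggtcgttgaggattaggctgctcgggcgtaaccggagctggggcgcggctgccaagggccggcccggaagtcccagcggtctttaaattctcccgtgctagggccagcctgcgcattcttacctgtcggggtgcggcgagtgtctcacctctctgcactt
ADM (chr11:10304823-10305122, plus strand): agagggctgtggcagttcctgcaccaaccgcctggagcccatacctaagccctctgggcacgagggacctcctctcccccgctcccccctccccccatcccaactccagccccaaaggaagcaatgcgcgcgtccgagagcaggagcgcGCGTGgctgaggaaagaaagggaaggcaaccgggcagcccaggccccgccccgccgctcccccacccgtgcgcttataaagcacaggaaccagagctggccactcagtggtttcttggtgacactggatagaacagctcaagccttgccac
BNIP3 held 5 sites, which began between positions -143 and -104 relative to the start. PLOD2 held 3 sites, ANKRD37 held 2, and P4HA1 held 1, which began at position -86. ADM held 1 site, a GCGTG that began at position -101, and no ACGTG. The windows of KDM3A, a member that rose and is not shown, likewise held GCGTG and no ACGTG. A match describes these letters only and is not a measured binding site.

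Neither mRNA of the HIF alpha subunits passed the test, nor did that of their partner. HIF1A had 23.5, 23.0 and 27.9 FPKM in overEXP libraries, against 29.2, 28.3 and 30.0 FPKM in NC libraries. Every overEXP library thus lay below every NC library, but the log2 fold change of -0.23 (95% interval -0.43 to -0.03) did not pass the test (adjusted p = 0.160 from limma). HIF1A passed only without overEXP replicate 3, where its log2 fold change was -0.31 (adjusted p = 0.0492). EPAS1, the other alpha subunit, had 5.64, 7.56 and 8.37 FPKM in overEXP libraries and 6.06, 5.90 and 6.47 FPKM in NC libraries. Its overEXP libraries spread on both sides of the NC libraries, and the log2 fold change was 0.18 (95% interval -0.11 to 0.48). ARNT, the shared partner of both, averaged 5.87 ± 0.75 FPKM in overEXP and 5.97 ± 0.04 FPKM in NC (SD, n = 3 libraries each). Its interval of -0.24 to 0.19 on the log2 scale bounds the difference in either direction.

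None of the tested enzymes that restrain HIF passed the test. EGLN1, the main prolyl hydroxylase of HIF, had 11.2, 10.6 and 12.6 FPKM in overEXP libraries and 12.0, 10.7 and 10.9 FPKM in NC libraries. The libraries of the groups were interleaved, and the log2 fold change was 0.03 (95% interval -0.17 to 0.22). EGLN3, a prolyl hydroxylase that is itself a classic HIF target, was read near 1 FPKM and was not tested. EGLN3 had 1.17, 1.04 and 0.95 FPKM in overEXP libraries, against 0.57, 0.56 and 0.64 FPKM in NC libraries, a ratio of means of 1.78 without overlap. Without the filter its log2 fold change was 0.37 (adjusted p = 0.245 from limma). VHL averaged 14.2 ± 1.03 FPKM in overEXP and 15.2 ± 0.08 FPKM in NC (SD, n = 3 libraries each), with a log2 fold change of -0.10 (95% interval -0.26 to 0.07). HIF1AN had 7.39, 7.55 and 8.86 FPKM in overEXP libraries, against 8.93, 8.92 and 9.26 FPKM in NC libraries. HIF1AN lay lower in all overEXP libraries, with a log2 fold change of -0.17 and an adjusted p of 0.259, and it shares 325 exonic bases with NDUFB8 on the opposite strand, which had 44.2 to 49.2 FPKM in overEXP libraries and 45.1 to 56.9 FPKM in NC libraries. Whether the reads were counted by strand is not given in the sources used here, so reads in shared stretches cannot be assigned to 1 gene.

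**Figure D2:**
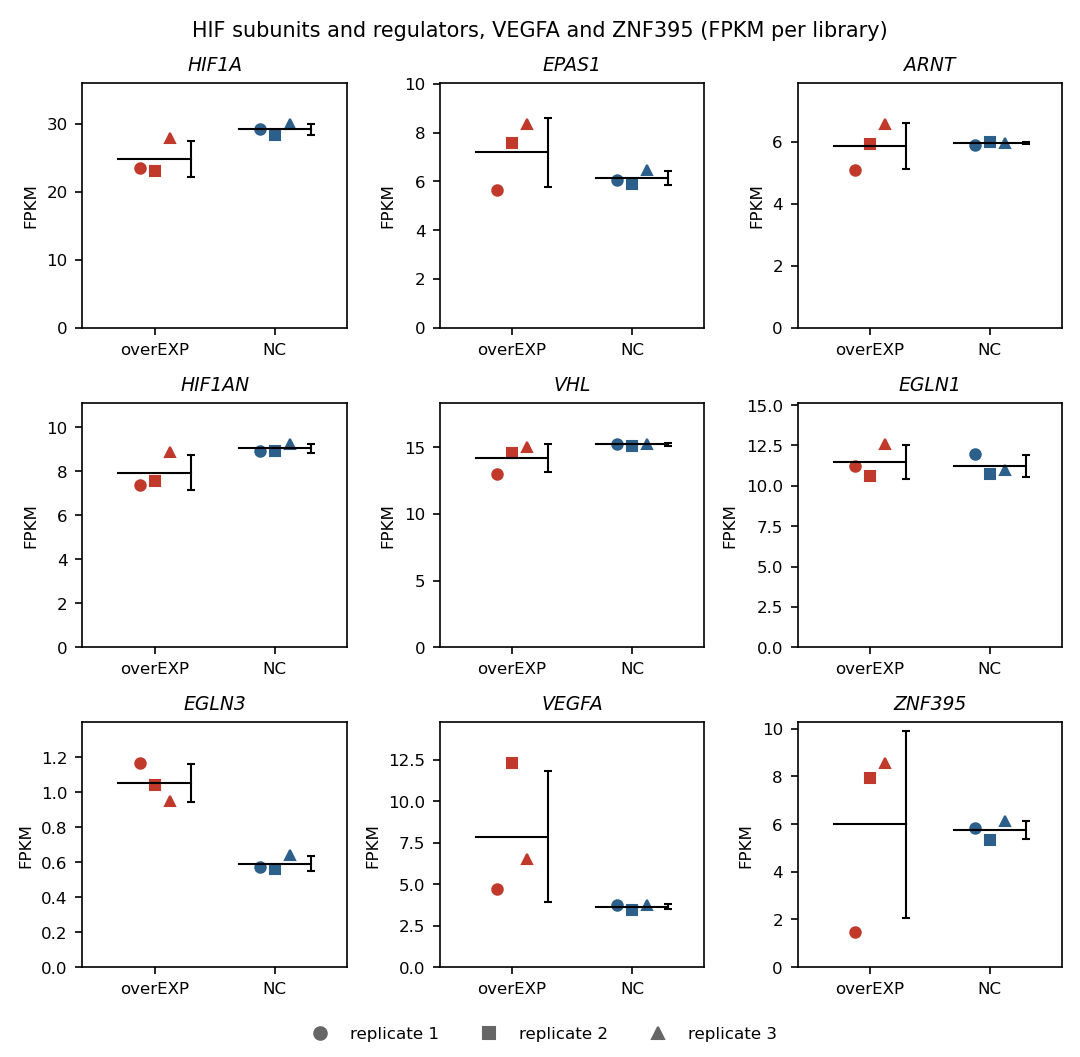
FPKM per library of HIF1A, EPAS1, ARNT, HIF1AN, VHL, EGLN1, EGLN3, VEGFA and ZNF395, with overEXP left and NC right, lines at the means, bars for the SD (n = 3) and symbols for the replicate number. EGLN3 and VEGFA are higher in every overEXP library, and 1 overEXP library sets the spread of VEGFA (12.3 FPKM) and of ZNF395 (1.46 FPKM).

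Both receptors that recruit mitochondria for degradation rose, as did FAM162A. BNIP3L, a mitophagy receptor of the outer mitochondrial membrane, had 12.5, 11.7 and 13.5 FPKM in overEXP libraries, against 6.64, 6.07 and 6.68 FPKM in NC libraries. Its groups were far apart relative to their spread, with a ratio of means of 1.94 and a difference of 0.86 on the log2 scale (SE 0.08, adjusted p = 0.00720 from limma). BNIP3L was the only member that passed whichever of the 6 libraries was left out (adjusted p from 0.0131 to 0.0439). It lies on chromosome 8 of GRCh38 from position 26383054, on the same chromosome as the endogenous EPHX2 gene, which starts at 27490781. ZNF395, from 28345590, and NDRG1, from 133237175, lie on this chromosome too. ZNF395, the nearest of these members to EPHX2, was not called with all libraries. Without overEXP replicate 1 its log2 fold change was 0.45 (adjusted p = 0.0413 from limma). Whether position on the chromosome has a part in these values was not tested. BNIP3, the paralog of BNIP3L with the same role, had 10.2, 9.13 and 10.0 FPKM in overEXP libraries, against 6.89, 5.96 and 6.38 FPKM in NC libraries. Its log2 fold change was 0.54 (SE 0.08, adjusted p = 0.0173 from limma), and the call was lost when NC replicate 2 or 3 was left out (adjusted p = 0.0920 and 0.0866). BNIP3 has processed pseudogenes that may share reads, of which BNIP3P1 and BNIP3P11 stayed under 1 FPKM in every library. FAM162A, a mitochondrial protein induced by HIF, averaged 11.3 ± 0.61 FPKM in overEXP and 8.41 ± 0.15 FPKM in NC (SD, n = 3 libraries each), a log2 fold change of 0.38 (adjusted p = 0.0311). FAM162A did not pass without overEXP replicate 2 or any 1 NC replicate (adjusted p from 0.0792 to 0.136), nor after rescaling to TPM (log2 fold change 0.27, adjusted p = 0.159).

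Enzymes that modify collagen split between those that rose and those that did not. P4HA1, an alpha subunit of collagen prolyl hydroxylase, had 22.5, 21.8 and 25.6 FPKM in overEXP libraries, against 13.6, 13.6 and 14.6 FPKM in NC libraries. All 3 overEXP libraries stood well above NC, with a difference of 0.70 on the log2 scale (SE 0.08, adjusted p = 0.00865 from limma), and P4HA1 missed the threshold only without NC replicate 2 among the left-out libraries (adjusted p = 0.0548). P4HA2, which encodes the alternative alpha subunit, had 5.67, 5.57 and 6.15 FPKM in overEXP libraries and 5.00, 6.06 and 6.68 FPKM in NC libraries. The groups of P4HA2 were interleaved, with a log2 fold change of -0.02 (95% interval -0.26 to 0.22). The intervals of P4HA1 (0.52 to 0.88) and P4HA2 did not overlap, and the difference between the paralogs was not tested. PLOD2, a lysyl hydroxylase of collagen, had 5.33, 5.54 and 6.07 FPKM in overEXP libraries, against 3.44, 3.11 and 3.62 FPKM in NC libraries. Its log2 fold change was 0.60 (adjusted p = 0.0152), and the call was lost when overEXP replicate 2 or any 1 NC replicate was left out (adjusted p from 0.0562 to 0.0850). PLOD1, a related hydroxylase and the most abundant of the 37 members, averaged 52.0 ± 4.42 FPKM in overEXP and 45.1 ± 1.35 FPKM in NC (SD, n = 3 libraries each), without overlap but also without passing the test (log2 fold change 0.20, adjusted p = 0.183). LOX, which cross-links collagen and elastin, was scarce, with 0.26, 0.40 and 0.24 FPKM in overEXP libraries and 0.13, 0.16 and 0.30 FPKM in NC libraries. It was not tested, and its groups overlapped.

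**Figure D3:**
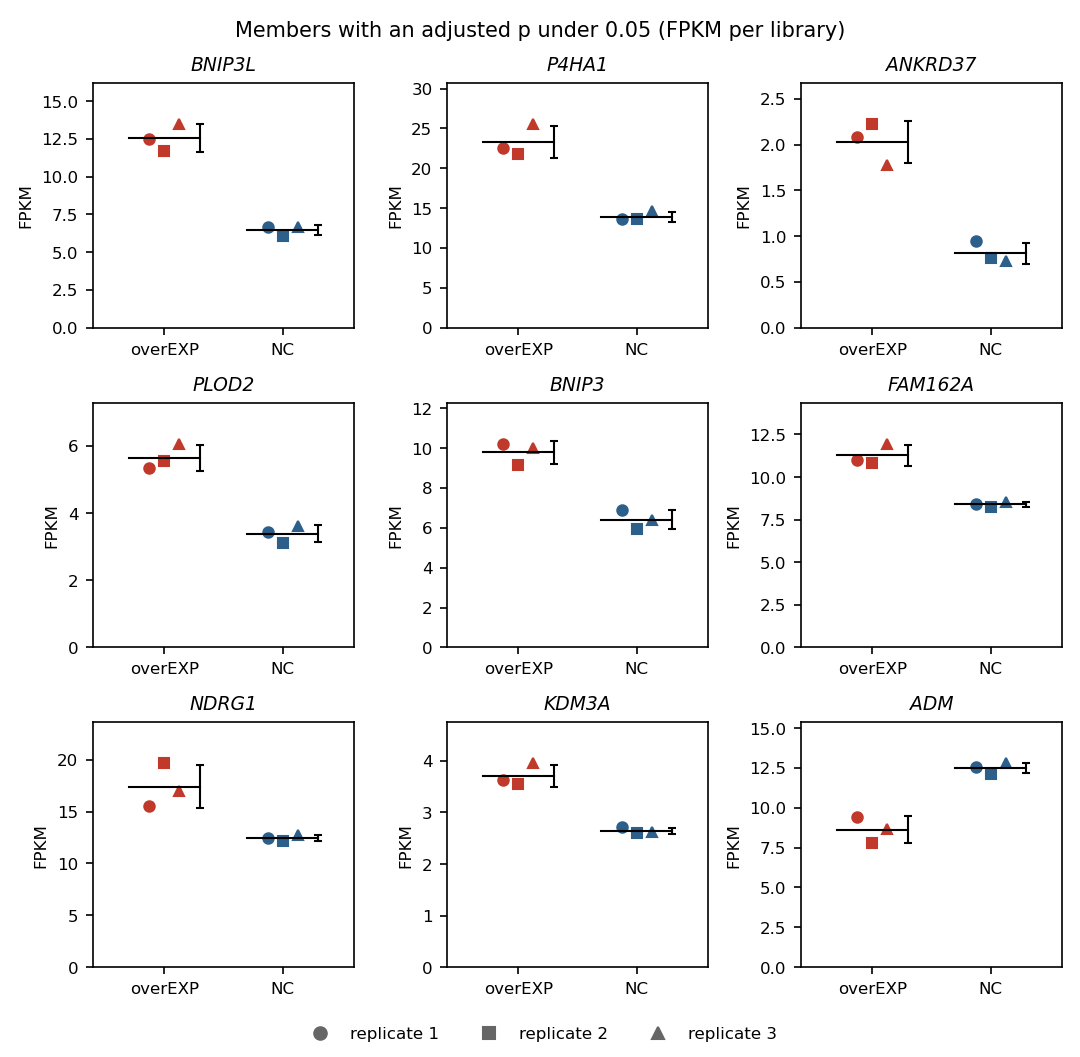
FPKM per library of the 9 members with an adjusted p under 0.05 from limma, with overEXP left and NC right, lines at the means, bars for the SD (n = 3) and symbols for the replicate number. In all 9 panels the groups do not overlap, with BNIP3L from 11.7 to 13.5 FPKM in overEXP and from 6.07 to 6.68 FPKM in NC, and ADM is the only panel in which overEXP is lower.

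Of the histone demethylases and related jumonji enzymes, 1 rose and none fell. KDM3A, which removes methyl groups from histone H3, had 3.62, 3.54 and 3.96 FPKM in overEXP libraries, against 2.71, 2.61 and 2.62 FPKM in NC libraries. The log2 fold change of 0.37 was past the threshold by a small margin (adjusted p = 0.0440 from limma), and the call was lost when any 1 library was left out (adjusted p from 0.0537 to 0.175) and after rescaling to TPM (adjusted p = 0.164). KDM4B, another demethylase, averaged 3.23 ± 0.18 FPKM in overEXP and 3.12 ± 0.40 FPKM in NC (SD, n = 3 libraries each), with a log2 fold change of 0.04 (95% interval -0.18 to 0.27). JMJD6, a jumonji protein that hydroxylates lysine, had 9.55, 8.33 and 8.24 FPKM in overEXP libraries, against 11.2, 10.9 and 10.3 FPKM in NC libraries. JMJD6 was lower in every overEXP library, with a log2 fold change of -0.28 that did not pass (adjusted p = 0.0871). It passed after rescaling to TPM (-0.44, adjusted p = 0.0373) and without overEXP replicate 1 (-0.34, adjusted p = 0.0491).

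Of the secreted and surface ligands, 1 fell and none passed as higher. ADM had 9.43, 7.76 and 8.68 FPKM in overEXP libraries, against 12.6, 12.1 and 12.8 FPKM in NC libraries. It lay lower in all overEXP libraries, with a difference of -0.49 on the log2 scale (SE 0.08, adjusted p = 0.0252 from limma), although it did not pass without overEXP replicate 2 or any 1 NC replicate (adjusted p from 0.0731 to 0.117). VEGFA, the main angiogenic growth factor, had 4.73, 12.3 and 6.53 FPKM in overEXP libraries, against 3.74, 3.44 and 3.76 FPKM in NC libraries. All overEXP libraries were above NC, but they differed from each other by more than the groups did, and the log2 fold change of 0.84 (95% interval 0.21 to 1.47) did not pass (adjusted p = 0.118). The highest VEGFA value belonged to overEXP replicate 2, the library with the summed 388.5 FPKM of differentiated colon epithelium genes, and whether that signal has a part in it was not tested. Without this library the ratio of VEGFA means was 1.54, against 2.15 with all libraries, and the log2 fold change was 0.50 (adjusted p = 0.120). EFNA1, a membrane-bound ligand of Eph receptors, followed the same order, with 4.35, 7.19 and 5.25 FPKM in overEXP libraries and 4.42, 4.44 and 4.11 FPKM in NC libraries. Its groups overlapped, and the ratio of means was 1.11 without overEXP replicate 2 and 1.30 with it. ANGPTL4, a secreted inhibitor of lipoprotein lipase, averaged 6.86 ± 0.66 FPKM in overEXP and 5.68 ± 0.69 FPKM in NC (SD, n = 3 libraries each), with a log2 fold change of 0.24 (adjusted p = 0.219).

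CA9, a membrane carbonic anhydrase that regulates pH and a common marker of hypoxia, was read close to the limit of detection. CA9 had 0.59, 0.68 and 0.14 FPKM in overEXP libraries, against 0, 0.04 and 0.15 FPKM in NC libraries. At the length of its canonical transcript in GENCODE v44, 1546 bases, these values stand for roughly 34, 44 and 9 reads in overEXP libraries and 0, 3 and 10 reads in NC libraries. Replicates 1 and 2 of overEXP were above all others and replicate 3 lay within the NC range, so the groups overlapped. CA9 also shares 571 exonic bases with ARHGEF39 on the opposite strand, which had 2.87 to 3.74 FPKM in overEXP libraries and 2.97 to 3.41 FPKM in NC libraries. No fold is drawn from these values.

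NDRG1 and ANKRD37 rose, and the noncoding MIR210HG did not pass the test. NDRG1, a cytoplasmic stress-response protein, had 15.6, 19.7 and 17.0 FPKM in overEXP libraries, against 12.5, 12.1 and 12.7 FPKM in NC libraries. Its log2 fold change was 0.45 (adjusted p = 0.0398 from limma), its highest value was in overEXP replicate 2, and it passed only without overEXP replicate 1 among the left-out libraries (adjusted p from 0.0666 to 0.149 in the others). NDRG1 also did not pass after rescaling to TPM (0.33, adjusted p = 0.103). ANKRD37, an ankyrin repeat protein, had 2.08, 2.23 and 1.78 FPKM in overEXP libraries, against 0.94, 0.76 and 0.73 FPKM in NC libraries. Its ratio of means, 2.50, was the highest of the members called, and its log2 fold change was 0.74 (adjusted p = 0.0145 from limma). It was under 1 FPKM in all NC libraries and entered the test only through overEXP libraries. Its direction was thus bound to the filter, and its call is no free test of direction. The call was lost when overEXP replicate 2, NC replicate 2 or NC replicate 3 was left out (adjusted p = 0.0528, 0.0820 and 0.0758). The fits with a library left out kept the filter taken over all 6 libraries. In those without an overEXP library, ANKRD37 was thus tested only because the left-out library still counted for the filter. ANKRD37 shares 909 exonic bases with UFSP2 on the opposite strand, which had 5.33 to 6.17 FPKM in overEXP libraries and 5.32 to 5.67 FPKM in NC libraries. MIR210HG, the host transcript of a hypoxia-induced microRNA, had 1.34, 1.94 and 1.39 FPKM in overEXP libraries, against 0.92, 0.80 and 0.83 FPKM in NC libraries. It stood higher in every overEXP library but did not pass (log2 fold change 0.46, adjusted p = 0.0690), and it passed after median-of-ratios scaling and quantile normalization (adjusted p = 0.0478 and 0.0421). The mature microRNA was not measured.

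MXI1, an antagonist of MYC, averaged 6.44 ± 0.64 FPKM in overEXP and 5.33 ± 0.24 FPKM in NC (SD, n = 3 libraries each), without overlap, a log2 fold change of 0.23 (adjusted p = 0.163 from limma). MXI1 passed only after median-of-ratios scaling and quantile normalization (0.29 in each, adjusted p = 0.0395 and 0.0432). RIOK3, an atypical protein kinase, had 8.49, 10.5 and 11.1 FPKM in overEXP libraries, against 12.9, 13.0 and 14.3 FPKM in NC libraries. It had the second lowest log2 fold change of the members tested, -0.40, and it passed only after rescaling to TPM (-0.56, adjusted p = 0.0375) and not as tested (adjusted p = 0.0749). BHLHE41, a transcriptional repressor, was not tested, with 0.75, 0.82 and 0.86 FPKM in overEXP libraries and 1.01, 0.81 and 0.99 FPKM in NC libraries, which overlap. RORA, a nuclear receptor, had at most 0.02 FPKM in overEXP libraries and 0.03 FPKM in NC libraries, roughly 4 to 11 and 7 to 14 reads over its canonical transcript.

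ZNF395, a zinc finger transcription factor, was decided by 1 library. It had 1.46, 7.93 and 8.55 FPKM in overEXP libraries, against 5.81, 5.34 and 6.11 FPKM in NC libraries. Replicates 2 and 3 of overEXP were thus above NC and replicate 1 far below, so that the log2 fold change was -0.18 (95% interval -1.28 to 0.91). Without overEXP replicate 1 it was 0.45 and passed the test (adjusted p = 0.0413 from limma). ZNF395 shares 2032 exonic bases on the same strand with FBXO16, which had 2.35, 0.99 and 1.58 FPKM in overEXP libraries and 1.18, 1.33 and 1.43 FPKM in NC libraries, highest in the library in which ZNF395 was lowest. The part of this shared stretch in the value was not tested. Over the members tested, overEXP replicate 1 was the lowest of its group for 16 of 31, and it was so for 60.3% of all genes tested. For other libraries the order of the members was less like that of all genes. NC replicate 2 was the lowest of its group for 20 of 31, against 34.6% of all genes tested. The highest of their groups were overEXP replicate 3 for 21 of 31, against 54.2%, and NC replicate 3 for 18 of 31, against 36.7%.

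None of the remaining members passed the test. HILPDA, a lipid droplet protein that inhibits lipolysis, averaged 5.42 ± 0.58 FPKM in overEXP and 4.74 ± 0.41 FPKM in NC (SD, n = 3 libraries each), a log2 fold change of 0.16 (95% interval -0.06 to 0.38). AK4, a mitochondrial adenylate kinase, and GBE1, the glycogen branching enzyme, had log2 fold changes of 0.02 (95% interval -0.16 to 0.20) and -0.08 (95% interval -0.28 to 0.11). AK4 has processed pseudogenes that may share its reads, of which AK4P1 had 7.35 to 8.12 FPKM in overEXP libraries and 6.43 to 7.82 FPKM in NC libraries. WSB1, a substrate adaptor of a ubiquitin ligase, and TMEM45A, a membrane protein, had log2 fold changes of 0.06 (95% interval -0.19 to 0.31) and -0.16 (95% interval -0.38 to 0.06). PPFIA4, a scaffold protein of the liprin family, was under the filter, with 0.73, 0.78 and 1.05 FPKM in overEXP libraries, against 0.48, 0.57 and 0.52 FPKM in NC libraries. PPFIA4 did not overlap between groups, and with EGLN3 it brought the members without overlap to 14 higher and 7 lower of all 37, where 5.16% and 10.1% of the whole table were so placed.

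Other genes of the pathway were read from lists outside the members. Of 21 tested genes of the HIF machinery, none rose and 1 fell in limma. They include EGLN2, subunits of the VHL ubiquitin ligase, other ubiquitin ligases, coactivators and chaperones. The further HIF subunits ARNT2 and HIF3A were under 1 FPKM in every library and were not tested. At an unadjusted p under 0.05, 4.76% and 9.52% of the 21 were higher and lower, against 6.55% and 16.4% of all genes tested. The 1 that fell is 4.76% of the list, near the 2.98% of all genes. The list had a median log2 fold change of -0.06, against -0.05 over all genes tested. The gene that fell was CITED2, which competes with HIF for the coactivators CREBBP and EP300. CITED2 had 7.96, 7.71 and 8.81 FPKM in overEXP libraries, against 11.9, 10.4 and 10.8 FPKM in NC libraries (log2 fold change -0.40, adjusted p = 0.0420 from limma). With 1 library left out, CITED2 passed only without overEXP replicate 3 (adjusted p from 0.0456 to 0.146). CREBBP, EP300 and EGLN2 had log2 fold changes of -0.31, -0.25 and -0.28 and did not pass (adjusted p from 0.104 to 0.345).

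Of 41 tested further targets outside glycolysis, 4 rose and 4 fell (9 and 7 at an unadjusted p under 0.05, or 22% and 17.1%, against 6.55% and 16.4% of all genes tested), with a median log2 fold change of 0.05. DDIT4, a stress-induced inhibitor of mTORC1, had 61.7, 106.9 and 98.2 FPKM in overEXP libraries, against 28.6, 25.6 and 25.8 FPKM in NC libraries (log2 fold change 1.66, adjusted p = 0.00865 from limma). CCNG2, an atypical cyclin of quiescent cells, averaged 3.23 ± 0.33 FPKM in overEXP and 1.47 ± 0.08 FPKM in NC (SD, n = 3 libraries each), and PIM1, a serine/threonine kinase, and BHLHE40, a transcriptional repressor related to BHLHE41, rose by 0.48 and 0.40. The transcription factor KLF6 and the EGFR ligand TGFA had log2 fold changes of -0.52 and -0.36 (adjusted p = 0.0164 and 0.0378), and CITED2, which stands on both lists, also fell. Of the further targets named, DDIT4 alone passed whichever library was left out, CCNG2 was lost without NC replicate 2 or 3, and KLF6 without overEXP replicate 2 or any 1 NC replicate. PIM1 and BHLHE40 passed only without overEXP replicate 1, and TGFA only without overEXP replicate 3. Among 24 glycolytic targets, 4 rose and none fell in limma (9 and 2 at an unadjusted p under 0.05, or 37.5% and 8.33%). Those that rose were ALDOC, ENO2, PFKFB4 and LDHA with log2 fold changes of 1.33, 0.72, 0.49 and 0.44, and the median of the list was 0.10. ALDOC and ENO2 passed whichever library was left out, while LDHA passed only without overEXP replicate 2 and PFKFB4 only without overEXP replicate 1. At the adjusted threshold, 25.8% of members were higher, against 16.7% of glycolytic targets, 9.76% of further targets and 0% of the HIF machinery. The share over all genes tested was 1.25%. At an unadjusted p under 0.05 in limma, members and glycolytic targets were level, with 38.7% and 37.5% higher. Without the filter these shares were 40.5% and 41.7%, so at an unadjusted p under 0.05 in limma the order of the 2 lists depended on the filter. The shares were not tested against each other.

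**Figure D4:**
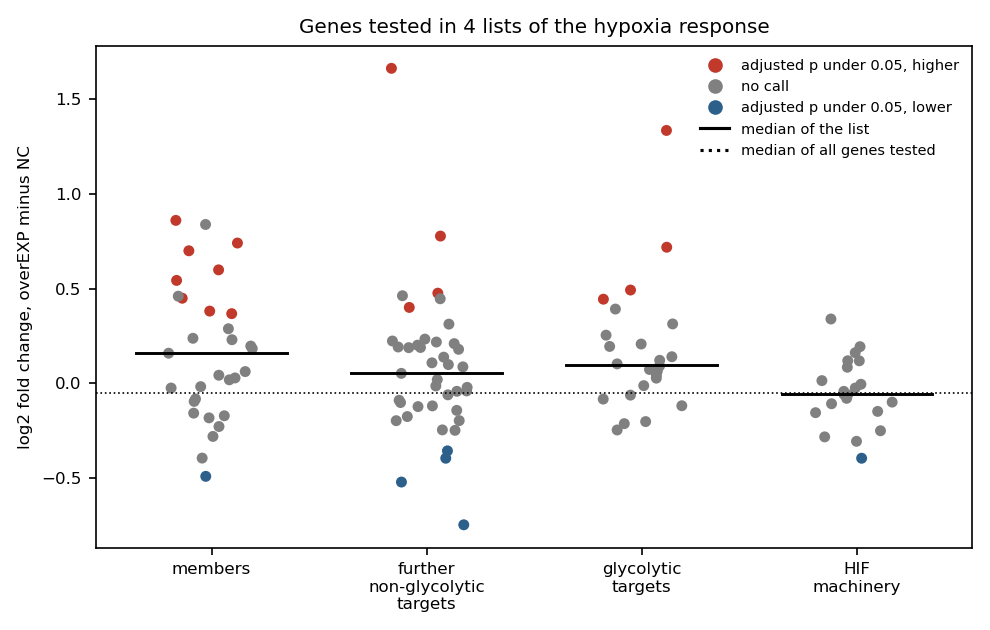
Log2 fold change (overEXP minus NC) of the genes tested in 4 lists, with 31 members, 41 further targets outside glycolysis, 24 glycolytic targets and 21 genes of the HIF machinery. Points are genes, colored by call, solid lines are the medians of the lists (0.16, 0.05, 0.10 and -0.06), and the dotted line is the median of all genes tested (-0.05).

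The number of members past the threshold depended on the setting. BNIP3L, P4HA1, ANKRD37, PLOD2 and BNIP3 were higher, and ADM lower, under each of the 4 rescalings of the libraries, with the smaller pseudocount and with the replicate number as a block. In these fits too the direction of ANKRD37 was bound to the filter. FAM162A, NDRG1 and KDM3A did not pass after rescaling to TPM, with equal sums over nuclear genes or with the block, and MIR210HG and MXI1 joined under median-of-ratios scaling and quantile normalization. Rescaling to TPM moved the median of all genes to -0.20, so changes under it are relative to that shift, and there the members had 5 higher and 3 lower. Over all genes, the 154 higher and 366 lower became 94 and 852 after rescaling to TPM, 345 and 359 after median-of-ratios scaling and 330 and 395 after quantile normalization. Without overEXP replicate 2, the library that stood apart, BNIP3L, P4HA1 and BNIP3 were higher and no member was lower, of 31 members fitted. Of all 12281 genes in that fit, 48 were higher and 59 lower.

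**Figure D5:**
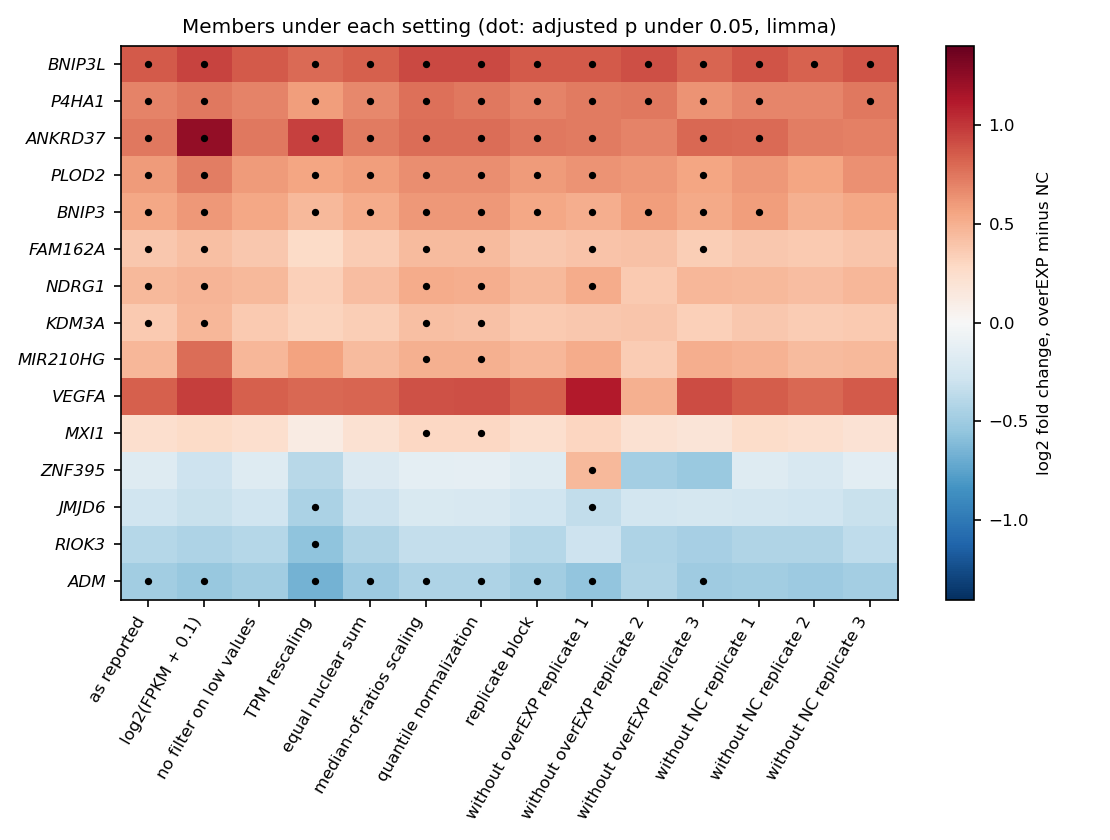
Log2 fold change (color, overEXP minus NC) of 15 members, in rows, under the reported fit and 13 other settings, in columns, with a dot where the adjusted p from limma was under 0.05. BNIP3L carries a dot in every column except that without a filter on low values (adjusted p = 0.0524), and ZNF395 changes sign without overEXP replicate 1 (0.45).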

How the data were processed

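RNA of HCT116 cells was sequenced on an Illumina instrument in 3 overEXP and 3 NC libraries. The authors filtered reads with FastQC, mapped them to GRCh38 with HISAT2 (the submitters' processing notes name 2.0.4), and assembled and merged transcripts with StringTie and gffcompare. They deposited 1 FPKM value from StringTie for each gene and library. The table also holds the authors' own fold changes, p-values and q-values, which were not used. FPKM corrects for depth and length, but it moves when abundant RNA takes another share of the reads. Samples and columns were grouped by their labels and names.

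Genes that reached 1 FPKM in 3 or more libraries (12281 of 38041) were kept, and log2(FPKM + 1) was fitted with limma 3.58.1 in R 4.3.3 over all 6 libraries with a variance trend, two-sided, and adjusted over all genes tested. A fold change on this scale understates the change of genes near 1 FPKM. The test was checked on simulated data with known changes. Loci and overlaps came from GENCODE v44, and promoters from RefSeq. The depth was estimated from the FPKM of single-exon genes, and read numbers given for low genes are rough. The members, the gene lists and the alternatives were chosen with earlier results of these data known. The text accounts for all 37 members, with full values for those past the threshold, the HIF subunits and regulators, VEGFA, CA9 and ADM, and names up to 6 genes past the threshold of each other list and up to 3 of the glycolytic one. ZNF395 and EFNA1 were given per library, and TGFA, CREBBP, EP300, EGLN2 and PFKFB4 named beyond this rule, after their values were seen. The values of 1 further target that passed are not reported here. Alternatives were another pseudocount, no filter, 4 rescalings, the replicate number as a block, and leaving out each library. Where a library was left out, the filter was still taken over all 6 libraries. No value was imputed, and Python 3.11.15 and matplotlib 3.10.9 were used for tables and figures.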

Additional observations from a re-analysis of the deposited data

How the results depend on the processing

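Over the 31 members tested, 13 settings gave 403 values, of which 347 stayed on their side of the threshold, 47 lost the threshold, 8 gained it and 1 changed sign with a call (ZNF395, from -0.52 to 0.45 with a library left out, positive only without overEXP replicate 1). Another 20 values, of AK4, ARNT, EGLN1, KDM4B, P4HA2 and WSB1, changed sign with no call on either side, none beyond 0.12 in size. The 8 higher members became 0 without the filter on low values, 5 after rescaling to TPM, 5 with equal nuclear sums and 5 with the replicate block, and from 1 to 8 with a library left out. The 1 lower member became 0 without the filter and 3 after TPM rescaling, and from 0 to 2 with a library left out. The median log2 fold change of the members was 0.04 after TPM rescaling and 0.08 to 0.22 with a library left out. The HIF machinery count of 0 higher became 1 after quantile normalization, and its 1 lower became 0 without the filter, 0 with the block and from 0 to 2 with a library left out, with 0 in 5 of these 6 fits. The 4 higher further targets became 0 without the filter, 2 after TPM rescaling, 2 with equal nuclear sums and from 1 to 6 with a library left out, and the 4 lower ones 0 without the filter, 2 with the block and from 0 to 5. The 4 higher glycolytic targets became 0 without the filter, 2 after TPM rescaling and from 2 to 3 with a library left out. Of all genes, higher counts were 3 without the filter, 94 after TPM rescaling, 345 after median-of-ratios scaling, 330 after quantile normalization and from 23 to 199 with a library left out, and lower counts were 2, 852 after TPM rescaling, 213 with the block and from 21 to 383. The fit without a filter adjusted over more genes, and the fits with a library left out held fewer libraries. The cause of the other moves was not tested.

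The replicate numbers share only a name in the labels. Deviations from the group means correlated by 0.36, -0.02 and 0.37 for replicates 1, 2 and 3 across genes. Libraries of unlike number correlated by -0.42 to 0.20, so replicates 1 and 3 had the highest values and replicate 2 did not. Whether libraries of the same number were handled together was not tested. As no label states pairs, the reported fit took none and the block was an alternative. The block moved the calls of all genes to 118 higher and 213 lower. The filter at 1 FPKM, which is scaled to transcript length, kept CA9, LOX, RORA, BHLHE41, PPFIA4 and EGLN3 out of the test. Read numbers were lowest for CA9 and RORA, with roughly 0 to 44 and 4 to 14 reads in a library. LOX had roughly 23 to 84 reads. ANKRD37, a called member, had roughly 60 to 73 reads in overEXP libraries and 25 to 26 in NC libraries.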
